A study of Homo sapiens with 5 samples.

Results

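The 32 genes described here encode enzymes of the mevalonate and sterol pathway, proteins that control it through the sterol regulatory element-binding proteins (SREBPs), and enzymes of fatty acid and glycerolipid synthesis. They were chosen by name from the 20037 genes that RefSeq annotates as protein-coding (GRCh38, the assembly also called hg38), and all 32 were matched by symbol. The study profiled HepG2, an established human liver cancer line, by CUT&Tag, and deposited 1 peak list for each of 5 groups with 1 library each. In CUT&Tag an antibody directs a transposase that cuts and tags nearby chromatin, and a peak is an interval where tagged fragments pile up above the caller's local estimate. The groups were Flag-tagged wild type ENL, Flag-tagged ENL with the Y78A substitution, and histone H3 acetylated (H3K9ac), β-hydroxybutyrylated (H3K9bhb) or crotonylated (H3K9cr) at lysine 9. ENL, a component of transcription elongation complexes, binds acylated lysines through its YEATS domain, and Y78A changes a residue of the pocket that holds the acyl group. The cells profiled with Flag or H3K9bhb antibodies stably expressed Flag-ENL, and for the H3K9ac and H3K9cr libraries the sources used here do not say this. They also do not say what promoter drove the transgene, whether the cells were 1 clone or whether they were treated.

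Cholesterol is built from acetyl-CoA through mevalonate, farnesyl diphosphate, squalene and lanosterol. When sterols are scarce, SCAP carries SREBPs from the endoplasmic reticulum to the Golgi, where they are cut and released to the nucleus, and INSIG proteins hold SCAP back when sterols are plentiful. SREBPs bind promoters of sterol and fatty acid synthesis genes together with NF-Y and Sp1, and the liver is a main site of both pathways.

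On the 24 standard chromosomes there were 11394 peaks of wild type ENL and 5422 of Y78A, and 31493, 9176 and 3852 of H3K9ac, H3K9bhb and H3K9cr. Read totals are unknown, and each peak's depth is given as the whole number of fragments at its summit, recovered from the deposited fold and p. The smallest deposited −log10 q was between 2.02 and 2.05 in the ENL and H3K9bhb lists, and 1.31 and 1.34 in H3K9ac and H3K9cr, so the lists were not cut alike. Peak names in the H3K9ac list begin with ENL1, which goes against its label, and results on H3K9ac refer to the library labelled so. H3K9ac peaks lay at the gene ends of 8 of 13 hepatocyte marker genes, near the share of 56.4% over all protein-coding genes. HNF4A, FOXA2 and APOB were among these 8. ALB and SERPINA1 had H3K9ac inside the gene only, and AFP, FGB and TTR had no peak in any list. Of 13 markers of other cell types, PECAM1 alone had a gene-end peak in H3K9ac. No comparison between libraries has a replicate check, and all 95% intervals cover counting error only.

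Wild type ENL was found at most of the genes, and the Y78A protein at few. A peak within 1 kb of either annotated end of the gene was present in wild type ENL at 22 of 32 genes (68.8%, 95% Wilson interval 51.4 to 82.0), against 28.6% of all protein-coding genes. H3K9bhb was at 18 (56.3%, interval 39.3 to 71.8), against 23.8% of all genes, and H3K9ac at 26 (81.3%, interval 64.7 to 91.1), against 56.4%. Y78A was at 7 genes (21.9%, interval 11.0 to 38.8), against 14.6% of all genes, and H3K9cr at 4 (12.5%, interval 4.97 to 28.1), against 4.49%. Most of these peaks fell at the same genes. H3K9ac was found at all 22 genes with wild type ENL (98% of all wild type ENL genes), H3K9bhb at 18 of these 22 (81.8%, against 71.3%) and H3K9cr at 4 (18.2%, against 14.4%). Wild type ENL was found at all 18 genes with H3K9bhb, against 85.8% of all H3K9bhb genes. Each of the 18 also had H3K9ac, as did 4700 of all 4766 H3K9bhb genes. Of those 4700 genes with both marks, 86.1% had wild type ENL. All 7 genes with Y78A had wild type ENL (97.2% of all Y78A genes). These 7 also had H3K9bhb, as did 2538 of all 2853 genes with both ENL proteins. Of the 26 genes with H3K9ac, 22 had wild type ENL (84.6%, interval 66.5 to 93.9), against 49.7%, and 18 had H3K9bhb (69.2%), against 41.6%. Among the 8 genes with H3K9ac and no H3K9bhb, 4 had wild type ENL, against 23.8% of all such genes.

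Genes were also counted where peaks were tied to genes in other ways. With peaks inside the gene counted as well, wild type ENL was at 25 genes (35.9% of all genes), Y78A at 12 (19.1%), H3K9ac at 31 (64.8%), H3K9bhb at 20 (31.2%) and H3K9cr at 4 (9.34%). Within 1 kb of a transcript start listed for 29 of the 32 genes, wild type ENL was at 22 (31.2% of 15842 genes with a listed start), Y78A at 8 (16.3%), H3K9ac at 26 (60.2%), H3K9bhb at 17 (26.1%) and H3K9cr at 4 (4.99%). No gene-end peak in any list was found at 6 genes (42.8% of all genes), namely PMVK, FDFT1, TM7SF2, INSIG1, ELOVL6 and LPIN1. A peak at a gene end may belong to a neighbour, and the strongest wild type peak of 8 of the 22 genes also lay at the end of another protein-coding gene, named with each gene in what follows.

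**Figure D1:**
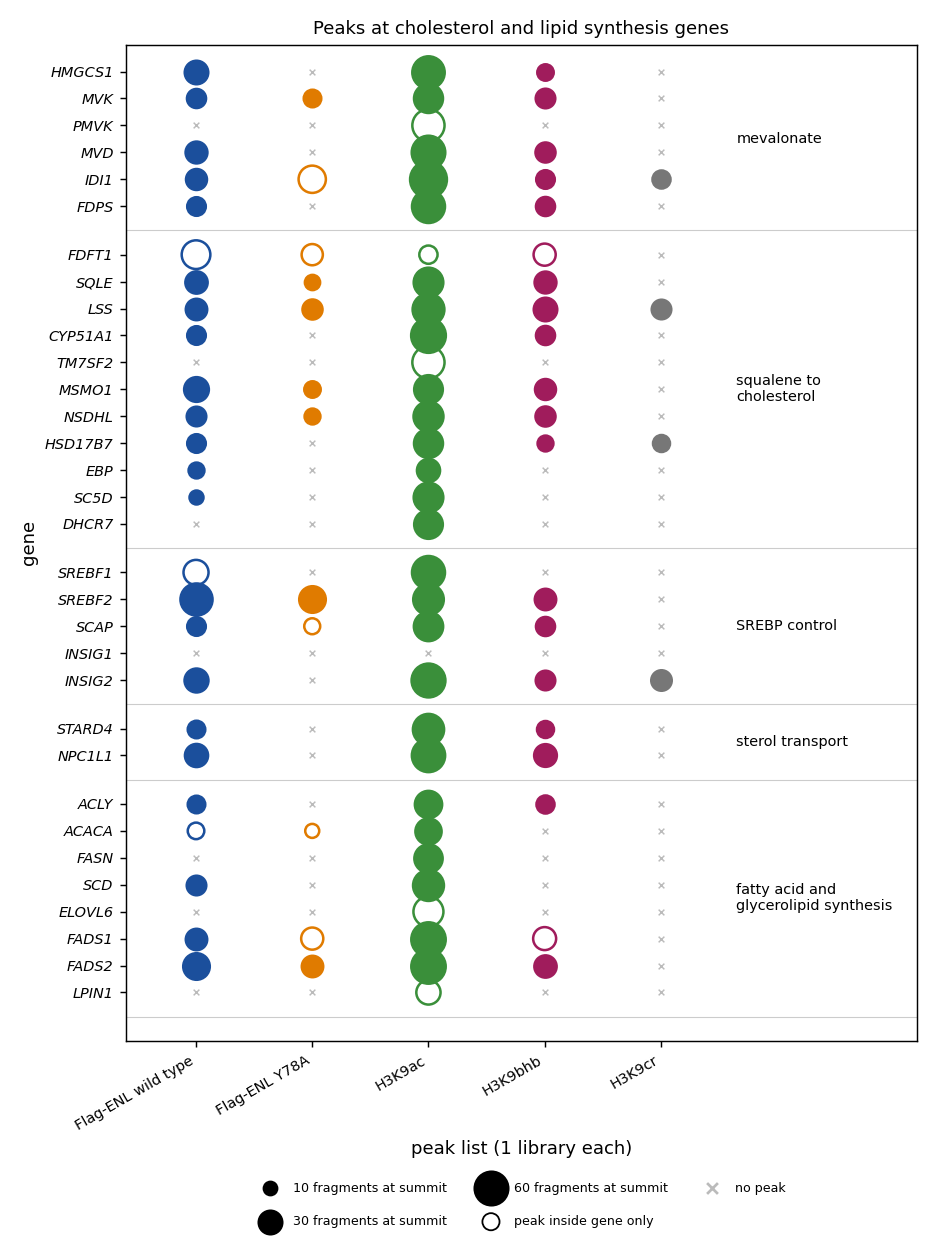
Each row is a gene, grouped by pathway step, and each column a peak list of 1 library; filled circles mark a peak within 1 kb of a gene end, open circles a peak only further inside the gene, and circle area is proportional to the fragments at the summit of the peak with the highest fold. Wild type ENL is filled at 22 genes, H3K9ac at 26, H3K9bhb at 18, Y78A at 7 and H3K9cr at 4.

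**Figure D2:**
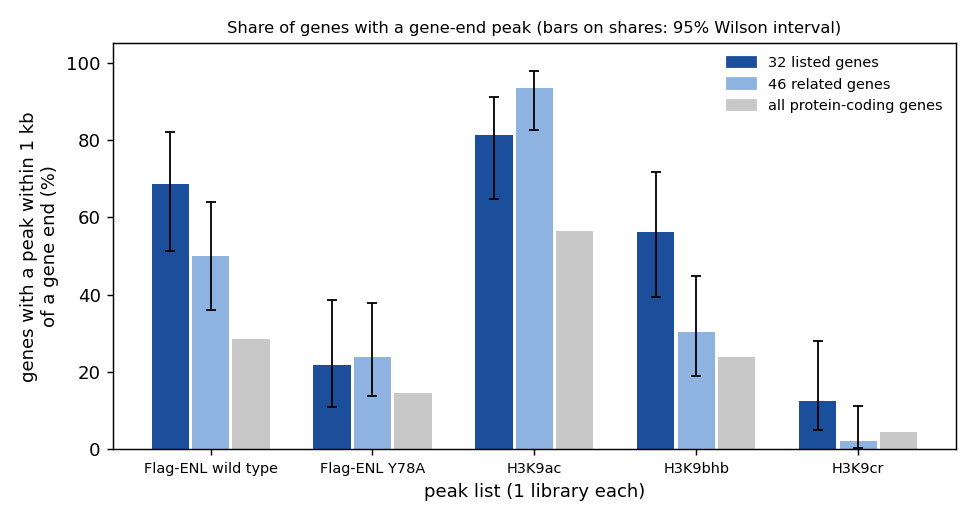
Bars give the percent of genes with a gene-end peak in each list for the 32 genes, for 46 related genes of lipid metabolism and for all 20037 protein-coding genes, with 95% Wilson intervals on the first 2. The wild type ENL bar stands at 68.8% for the 32 genes, 50% for the related genes and 28.6% for all genes.

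Promoter sequences of 7 genes are shown because they carry the main contrasts: SREBF2, NSDHL and MSMO1 had both ENL proteins, HMGCS1, STARD4 and HSD17B7 had wild type ENL only, and INSIG1 had no peak in any list. Each run is the 250 bases upstream of the first transcript start listed by RefSeq (GRCh38.p14), 5′ to 3′ on the gene's strand. Capitals mark TCACNCCAC or its shorter part CACNCCAC (sterol regulatory element), CACGTG (E-box) and CCAAT (the NF-Y box), each on either strand, so that ATTGG is CCAAT on the other strand.
SREBF2: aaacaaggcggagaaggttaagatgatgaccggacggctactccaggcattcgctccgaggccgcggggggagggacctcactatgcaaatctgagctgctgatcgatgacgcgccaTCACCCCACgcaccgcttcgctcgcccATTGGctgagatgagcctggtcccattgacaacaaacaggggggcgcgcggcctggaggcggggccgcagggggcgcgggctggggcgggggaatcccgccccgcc
NSDHL: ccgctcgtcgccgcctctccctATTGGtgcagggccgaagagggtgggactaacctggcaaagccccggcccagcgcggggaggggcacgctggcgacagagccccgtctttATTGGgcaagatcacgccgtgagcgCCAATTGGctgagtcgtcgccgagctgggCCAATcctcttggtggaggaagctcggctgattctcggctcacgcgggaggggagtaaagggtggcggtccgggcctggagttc
MSMO1: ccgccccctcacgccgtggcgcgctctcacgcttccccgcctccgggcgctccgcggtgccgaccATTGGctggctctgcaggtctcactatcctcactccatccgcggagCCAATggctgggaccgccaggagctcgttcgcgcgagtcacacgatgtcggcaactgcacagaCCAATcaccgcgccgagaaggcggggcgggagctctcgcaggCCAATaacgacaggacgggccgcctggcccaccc
HMGCS1: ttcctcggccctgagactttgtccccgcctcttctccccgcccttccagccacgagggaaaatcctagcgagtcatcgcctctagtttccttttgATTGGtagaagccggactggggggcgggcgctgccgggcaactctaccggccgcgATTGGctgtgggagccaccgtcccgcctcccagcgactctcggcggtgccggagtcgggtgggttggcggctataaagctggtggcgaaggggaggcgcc
STARD4: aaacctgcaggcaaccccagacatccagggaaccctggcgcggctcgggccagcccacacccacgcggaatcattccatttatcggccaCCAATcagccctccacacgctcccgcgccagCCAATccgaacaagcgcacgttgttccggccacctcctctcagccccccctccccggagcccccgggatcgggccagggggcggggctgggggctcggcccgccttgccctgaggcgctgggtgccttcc
HSD17B7: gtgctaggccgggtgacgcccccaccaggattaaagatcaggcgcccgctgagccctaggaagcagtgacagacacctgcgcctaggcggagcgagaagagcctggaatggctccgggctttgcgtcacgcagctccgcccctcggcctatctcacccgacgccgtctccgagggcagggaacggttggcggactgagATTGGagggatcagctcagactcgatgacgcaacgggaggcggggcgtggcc
INSIG1: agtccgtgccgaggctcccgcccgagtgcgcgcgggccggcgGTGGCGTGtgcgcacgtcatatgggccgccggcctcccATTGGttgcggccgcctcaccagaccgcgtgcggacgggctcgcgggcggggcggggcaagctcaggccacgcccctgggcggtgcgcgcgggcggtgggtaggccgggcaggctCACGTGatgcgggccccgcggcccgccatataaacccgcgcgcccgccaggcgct
The runs lie at chr22:41832855-41833104 (plus strand), chrX:152830813-152831062 (plus), chr4:165327419-165327668 (plus), chr5:43313413-43313662 (minus), chr5:111512536-111512785 (minus), chr1:162790452-162790701 (plus) and chr7:155297628-155297877 (plus). In SREBF2 the wild type and Y78A summits lay at bases 42 and 43 of the run and the H3K9bhb summit at base 116, at −135 bp from the start, and TCACCCCAC began at −133. In the HSD17B7 run the wild type, H3K9bhb and H3K9cr summits lay at bases 154, 162 and 146. In the STARD4 run the wild type summit lay at base 228 and the H3K9bhb summit at base 177.

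The letters of these elements were counted in the 300 bases from 250 before to 50 after the first listed start, for the 29 of 32 genes that the promoter table holds. CCAAT was in 18 of 29 promoters (62.1%), against 36.4% of 15842 protein-coding promoters and 45.7% of the 4209 promoters that a wild type ENL peak overlapped. Of the 19 listed promoters that a wild type ENL peak overlapped, 15 held CCAAT. The GC box GGGCGG was in 26 of 29 (89.7%), against 58.5% of all promoters and 78.3% of those on a wild type ENL peak. TCACNCCAC was in the SREBF2 promoter alone, against 1.17% of all promoters. The overlapping shorter form CACNCCAC was in 4 (SREBF2, INSIG1, SCD and SC5D, 13.8%), against 6.02%, and CACGTG in 4 (INSIG1, LSS, SC5D and SCAP, 13.8%), against 8.88%. A match describes letters in the window and not a bound site.

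Among the 6 genes from mevalonate synthesis to farnesyl diphosphate, 5 had wild type ENL, H3K9ac and H3K9bhb at a gene end, and 1 had Y78A. HMGCS1, which makes HMG-CoA, had the highest wild type fold of all 32 genes. Its wild type peak (chr5:43313277-43313823) was 7.76-fold over the caller's background, with 30 fragments at the summit (exact Poisson interval 20.2 to 42.8) and the summit at −229 bp from the start. H3K9ac at HMGCS1 was 6.14-fold with 56 fragments, H3K9bhb 4.72-fold with 15 fragments, and neither Y78A nor H3K9cr had a peak there. Folds of different lists are not on 1 scale. The H3K9ac peak of HMGCS1 stood in the top 1.94% of its list by p, the wild type peak in the top 13.1% and the H3K9bhb peak in the top 76.1%. MVK, mevalonate kinase, was the 1 gene of this step with Y78A at a gene end. It had a 5.26-fold wild type peak with 20 fragments, a 5.41-fold Y78A peak with 17 fragments whose summit lay 6 bp away, and a 4.76-fold H3K9bhb peak with 21 fragments. MMAB, a neighbour transcribed from the same region, shares these peaks. MVD, which makes isopentenyl diphosphate, had wild type peaks at both ends, of 5.72-fold and 26 fragments at the start and 4.55-fold and 33 fragments at the far end, which CYBA shares, and H3K9bhb at both. FDPS, farnesyl diphosphate synthase, had a 4.23-fold wild type peak with 19 fragments and a 4.29-fold H3K9bhb peak with 20 fragments. Its wild type peak ended at position 155308672 and its H3K9ac peak began at 155308676, so these did not overlap, and PKLR shares the wild type peak. PMVK, phosphomevalonate kinase, had no gene-end peak. Its 3.45-fold H3K9ac peak (chr1:154936461-154937319) lay at its listed transcript start, 5520 bp inside the annotated gene.

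IDI1, which interconverts isopentenyl and dimethylallyl diphosphate, had 2 ENL sites. The outer start had a 4.92-fold wild type peak with 24 fragments, shared with WDR37, and a 3.94-fold H3K9bhb peak with 19 fragments. At listed starts further inside the gene the wild type peak (chr10:1048790-1049628) was 6.48-fold with 70 fragments, in the top 2.24% of its list by p. That inner site also had a 6.13-fold Y78A peak with 38 fragments and a 5.71-fold H3K9bhb peak with 51 fragments. Its wild type summit held the most fragments of any peak of that list at the 32 genes. An H3K9cr peak of 2.99-fold and 18 fragments lay upstream of the outer start, at the low end of its list (−log10 q 2.07). A stronger H3K9cr peak inside IDI1 (chr10:1046741-1047385), of 3.76-fold, 34 fragments and −log10 q 7.16, overlapped H3K9ac and none of the wild type, Y78A or H3K9bhb peaks.

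Between squalene and cholesterol, gene-end peaks of wild type ENL were found at 8 of 11 genes, of H3K9ac at 9, of H3K9bhb at 6, of Y78A at 4 and of H3K9cr at 2. SQLE, squalene epoxidase, had a 6.69-fold wild type peak with 27 fragments, a 5.42-fold Y78A peak with 13 fragments and a 6.90-fold H3K9bhb peak with 26 fragments. MSMO1, a methyl sterol oxidase, had 33 wild type fragments (6.51-fold), 15 Y78A fragments (5.19-fold) and 24 H3K9bhb fragments (5.56-fold). NSDHL, which removes a sterol methyl group, had 21 wild type fragments (7.19-fold), 14 Y78A fragments (6.32-fold) and 22 H3K9bhb fragments (7.22-fold), and shares the peaks with CETN2. LSS, lanosterol synthase, was the 1 gene of the 32 with a gene-end peak in all 5 lists, a pattern found at 3.31% of all genes. Wild type ENL there held 25 fragments (4.98-fold), Y78A 22 (6.14-fold), H3K9ac 54 (3.39-fold), H3K9bhb 30 (5.12-fold) and H3K9cr 21 (3.23-fold). Y78A therefore lay at a gene end of 4 enzymes of this step, each with H3K9bhb there. Of all 2853 genes with both ENL proteins, 2538 had H3K9bhb.

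The other 4 genes of this step with a gene-end peak of wild type ENL had no Y78A peak. HSD17B7, a ketosteroid reductase, had a 7.45-fold wild type peak with 19 fragments, a 5.15-fold H3K9bhb peak with 14 fragments and a 4.63-fold H3K9cr peak with 16 fragments. CYP51A1, lanosterol demethylase, had a 4.73-fold wild type peak with 19 fragments, and 2 H3K9bhb peaks of 4.61-fold and 3.87-fold. EBP, a sterol isomerase, and SC5D, a sterol desaturase, had wild type ENL without H3K9bhb. EBP had 14 wild type fragments (5.81-fold) and shares that peak with PORCN, and SC5D had 11 (4.54-fold), the fewest of the wild type peaks at the 32 genes. The H3K9ac peak of SC5D was 6.50-fold and in the top 3.29% of its list by p, while 94.5% of the wild type list ranked at or above its wild type peak. DHCR7, the last reductase of the pathway, had H3K9ac alone (3.08-fold, 44 fragments), and TM7SF2, a sterol reductase, had 1 H3K9ac peak inside the gene (1.92-fold, 53 fragments). FDFT1, squalene synthase, had no gene-end peak. At 1 place inside the gene (chr8:11802201-11802912) it had a 6.60-fold wild type peak with 42 fragments, a 5.83-fold Y78A peak with 23 fragments and a 4.90-fold H3K9bhb peak with 25 fragments, all over H3K9ac.

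Among the 5 genes of SREBP control, SREBF2, SCAP and INSIG2 had wild type ENL with H3K9bhb at a gene end. SREBF2, which encodes the SREBP most tied to cholesterol synthesis, had the wild type gene-end peak with the highest −log10 p of the 32 genes (27.8). That peak (chr22:41832661-41833215) was 6.26-fold with 55 fragments (interval 41.4 to 71.6), and the Y78A peak was 8.44-fold with 38 fragments (interval 26.9 to 52.2), with summits 1 bp apart. H3K9bhb was 4.10-fold there with 25 fragments, and CCDC134 shares that wild type peak. A second wild type peak inside SREBF2 (chr22:41842712-41842968), of 4.51-fold and 25 fragments, overlapped no peak of another list. INSIG2 had 31 wild type fragments (6.30-fold), 21 H3K9bhb fragments (5.29-fold), 61 H3K9ac fragments (4.52-fold) and 23 H3K9cr fragments (4.11-fold), and no Y78A peak. SCAP had a 4.39-fold wild type peak with 19 fragments near its listed start. Deep inside SCAP (chr3:47443139-47443880) a second wild type peak of 5.39-fold and 23 fragments had Y78A and H3K9bhb counterparts of 13 and 21 fragments. SREBF1 had H3K9ac at a gene end (2.32-fold, 58 fragments) and 1 wild type ENL peak inside the gene (4.03-fold, 32 fragments), which had no counterpart in another list. INSIG1 was the 1 gene of the 32 with no peak of any kind at its ends or inside it, whereas 33.9% of all genes had none.

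Both sterol transport genes had wild type ENL and H3K9bhb without Y78A. STARD4, a cytosolic sterol carrier, had 17 wild type fragments (6.92-fold), 16 H3K9bhb fragments (6.70-fold) and 52 H3K9ac fragments (6.32-fold). NPC1L1, the sterol uptake protein that ezetimibe blocks, had 29 wild type fragments (5.36-fold), 28 H3K9bhb fragments (4.66-fold) and 59 H3K9ac fragments (2.81-fold).

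**Figure D3:**
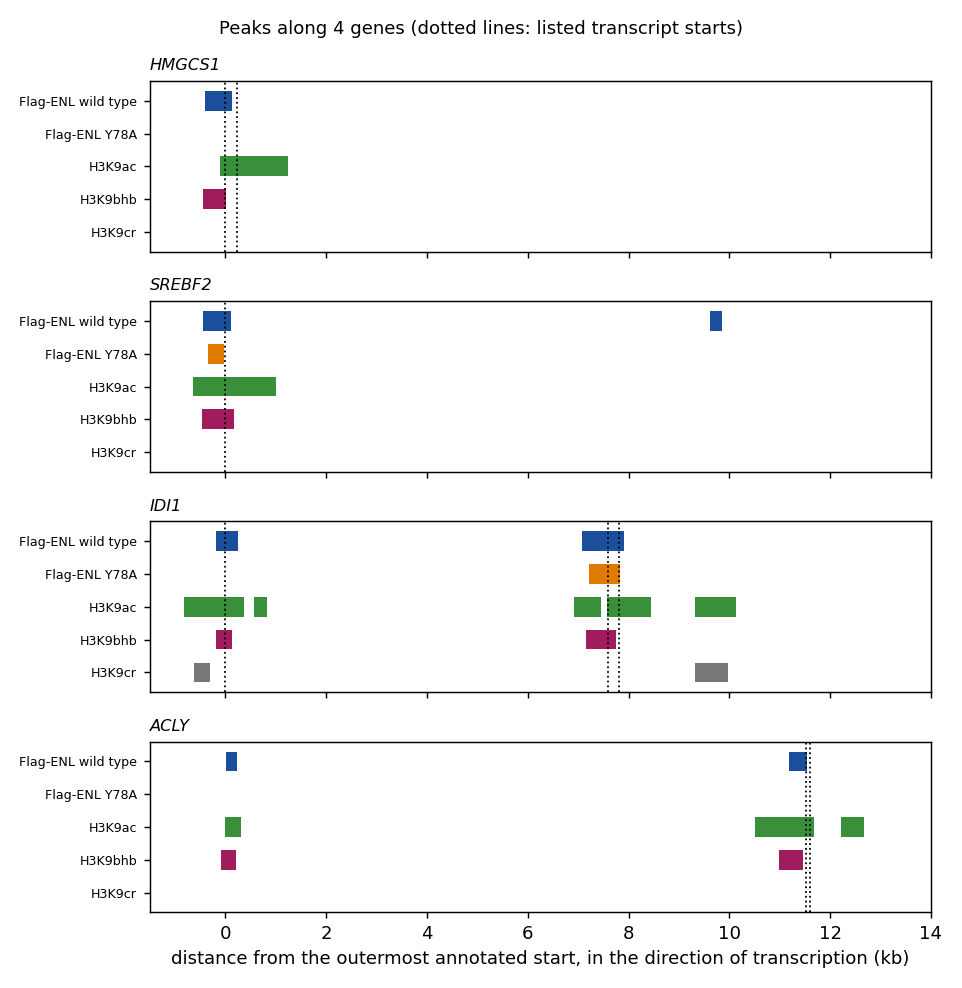
Bars show the peaks of each list along HMGCS1, SREBF2, IDI1 and ACLY, by distance in kb from the outermost annotated start in the direction of transcription, out to 14 kb; dotted lines are listed transcript starts. IDI1 has wild type ENL at its outer start and at inner listed starts. ACLY has it at its outer annotated end, where no start is listed, and at its listed starts further inside. A Y78A bar is present at SREBF2 and at the inner starts of IDI1.

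Fatty acid and glycerolipid genes had wild type ENL at a gene end in 4 of 8, H3K9ac at 6, H3K9bhb at 2, Y78A at 1 and H3K9cr at 0. ACLY, which makes cytosolic acetyl-CoA, had wild type ENL and H3K9bhb at its outer end (17 and 18 fragments, shared with ODAD4) and again at its listed starts (27 and 28 fragments), with no Y78A at either. FADS1 and FADS2, fatty acid desaturases with overlapping ends, share a wild type peak (chr11:61815152-61815690) of 4.86-fold and 38 fragments, with 25 Y78A and 27 H3K9bhb fragments. That peak counted as a gene-end peak of FADS2 and lay inside FADS1. A weaker wild type peak (chr11:61816457-61816832) of 3.17-fold and 25 fragments lay at the ends of both genes, and it was the gene-end peak by which FADS1 was counted. SCD, stearoyl-CoA desaturase, had 21 wild type fragments (3.54-fold) and no H3K9bhb. FASN, fatty acid synthase, had H3K9ac alone, at 2.25-fold and 2.07-fold near its ends. ACACA, acetyl-CoA carboxylase, had H3K9ac at its outer end, in a peak shared with TADA2A. At an inner listed start of ACACA (chr17:37358968-37359517) wild type ENL held 14 fragments (4.97-fold) and Y78A 10 (5.08-fold), with H3K9ac and no H3K9bhb. ELOVL6, a fatty acid elongase, and LPIN1, a phosphatidate phosphatase, had H3K9ac peaks inside the gene only, and LPIN1 had 7 of them. The share with H3K9bhb was 25% (interval 7.15 to 59.1) for these 8 genes. It was 83.3% (interval 43.6 to 97.0) for the 6 mevalonate genes. These intervals overlap, which shows neither a difference nor likeness of the shares.

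To ask whether the substituted protein kept the sites, Y78A was counted among genes with wild type ENL. At gene ends it was present at 7 of 22 (31.8%, interval 16.4 to 52.7), against 49.8% of all wild type ENL genes. With peaks inside the gene counted as well, it was present at 12 of 25 (48.0%, interval 30.03 to 66.5), against 51.5%. The 5 genes added were IDI1, FDFT1, SCAP, ACACA and FADS1, and none of these Y78A peaks lay at an outer gene end of its own gene. Both intervals include the share over all genes. Each list was also limited to its 3852 strongest peaks by p. Of the 10 genes with a wild type gene-end peak there, 3 had Y78A (30%, interval 10.8 to 60.3). The share over all such genes, 70.3%, lay above that interval. The count depends on the cut, because MSMO1 and SQLE had Y78A peaks ranked 3937 and 4110, just past it. Among the 18 genes with wild type ENL and H3K9bhb at a gene end 7 had Y78A (38.9%, interval 20.3 to 61.4), against 62.1% of all such genes, and among the 4 without H3K9bhb none had it, against 19.2%.

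The wild type peaks of these genes were about as strong as those of other genes. Their median −log10 p was 12.4, against 12.3 over all 5734 wild type ENL genes, and their median fold was 5.31, against 5.24. The 7 genes with Y78A had a median of 27 wild type fragments (20 to 55), and the 15 without had 19 (11 to 31), so the ranges overlap. Wild type ENL genes were divided into 4 equal groups by −log10 p, and Y78A was present at 11.4%, 30.9%, 63.9% and 92.8% of all genes from the weakest group to the strongest. The listed genes had Y78A at 0 of 6, 2 of 5, 3 of 7 and 2 of 4 in the same order. HMGCS1 and INSIG2 were the 2 genes of the strongest group without Y78A. INSIG2, at −log10 p 17.6, lay just above the lower edge of that group, also 17.6, and HMGCS1 stood at 20.4.

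**Figure D4:**
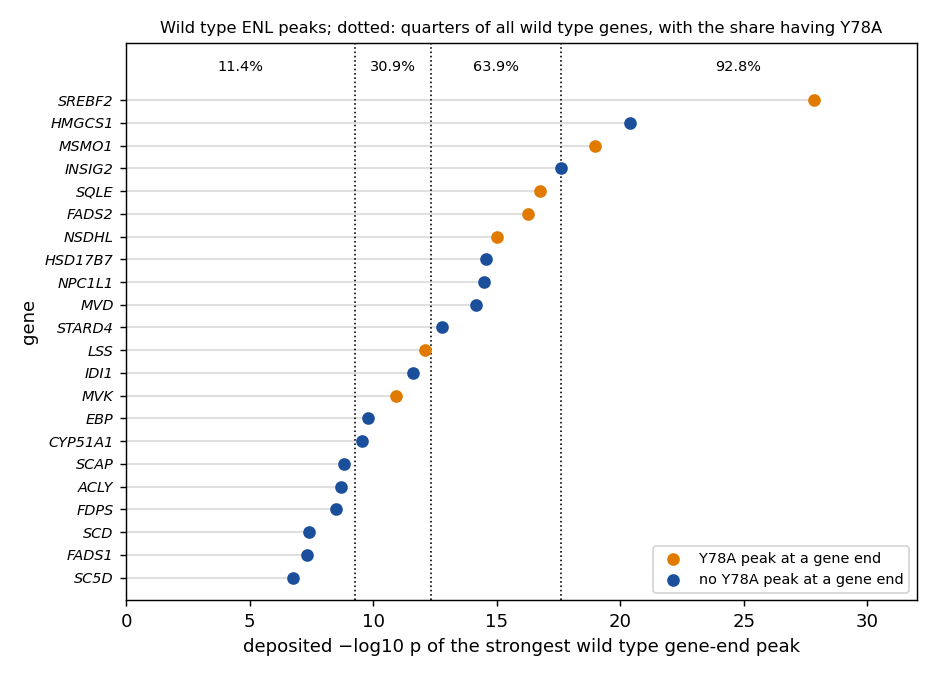
Points give the deposited −log10 p of the strongest wild type gene-end peak of 22 genes, in orange where the gene has a Y78A gene-end peak; dotted lines divide all wild type ENL genes into 4 equal groups, with the percent of each group that has Y78A printed above. HMGCS1 at 20.4 and INSIG2 at 17.6 are the blue points of the right-hand group.

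At the 11 sites of these genes with both ENL proteins, the Y78A summit held fewer fragments at all 11. The caller's background was also lower in Y78A at each of them, such as 3.62 against 7.95 fragments at the SREBF2 start. The ratio of Y78A to wild type fragments ran from 0.455 to 0.88, with a median of 0.658, against a median of 0.688 over all 4970 overlapping pairs of wild type and Y78A peaks. The most frequent background of the Y78A list was 0.845 times that of wild type, a measure of relative depth that may also depend on call settings. For the 15 genes without Y78A, the wild type fragments were multiplied by 0.845 and set beside the smallest count that would reach the lowest −log10 p of the Y78A list (5.09). The background behind that smallest count was the wild type background multiplied by the same factor. All 15 scaled counts reached the smallest count, with between 9 and 19 fragments needed. At 5 genes the lower 95% limit of the scaled count (exact Poisson) also reached it. HMGCS1 had 25.3 scaled fragments (lower limit 17.1) against 12 needed, INSIG2 26.2 (17.8) against 14, NPC1L1 24.5 (16.4) against 15, MVD 21.97 (14.4) against 13 and HSD17B7 16.1 (9.67) against 9. At the other 10 genes the lower limit fell below the needed count, from SC5D with 9.29 scaled fragments against 9 to STARD4 with 14.4 against 9. These limits cover the wild type count only and depend on the factor 0.845. The median ratio at sites with both proteins was lower, 0.658 here and 0.688 over all pairs. A lower factor would lower the scaled counts and their limits, and could also lower the counts needed. Whether depth accounts for the missing Y78A peaks was not tested at any of the 15 genes.

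ENL, H3K9bhb and H3K9cr summits lay mostly upstream of transcript starts. Within 1 kb of a listed start, with upstream negative, the median summit was at −144 bp in wild type ENL (19 of 23 summits before the start) and −140 bp in H3K9bhb (17 of 19). All 8 Y78A and all 4 H3K9cr summits there lay before the start, and H3K9ac summits were divided evenly, 19 before and 19 after. Over all genes with a listed start, 68.4% of wild type, 71.7% of Y78A and 66.0% of H3K9bhb summits lay before it. The share was 72.8% for H3K9cr and 40.7% for H3K9ac, and the wild type median was −108 bp. Gaps between summits were measured only where a peak overlapped a wild type peak, which by itself limits how far apart the summits can lie. The H3K9cr peak upstream of the outer IDI1 start overlapped no wild type peak and was left out. No gap over all genes is set beside these medians. Wild type summits lay a median of 45 bp from the Y78A summit at 11 shared sites and 52 bp from H3K9bhb at 23. The median was 14 bp from H3K9cr, at 3 sites only, and 190 bp from H3K9ac over 29 pairs of peaks, some of which share a wild type peak. H3K9ac peaks were wider (median 858 bp at gene ends, against 529 bp for wild type ENL), and wide peaks leave more room between summits.

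**Figure D5:**
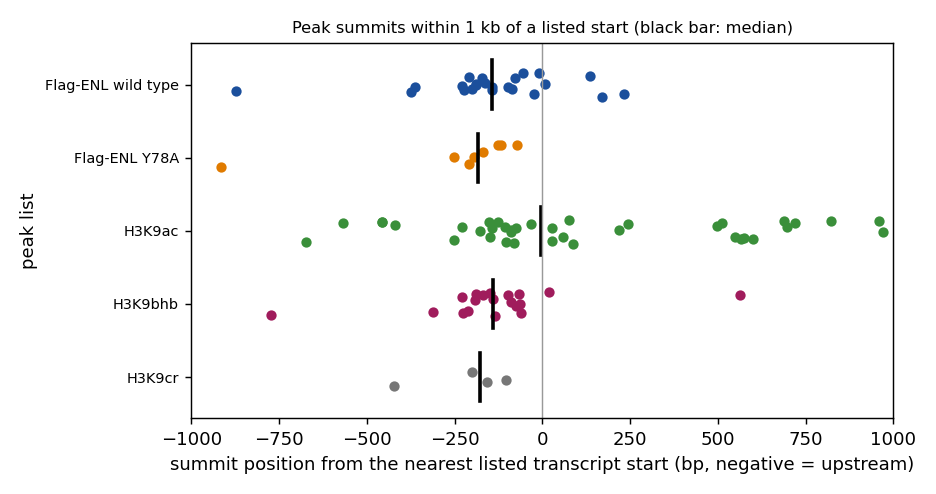
Points are peak summits of the 29 genes with a listed start that lie within 1 kb of it, by distance in bp from the nearest listed start (negative is upstream), and black bars are medians. Wild type ENL and H3K9bhb medians are −144 and −140 bp, and H3K9ac summits lie on both sides.

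A second list of 46 genes of lipid metabolism, regulators, transporters and acyltransferases, was examined in the same way. Wild type ENL was at a gene end of 23 (50%, interval 36.1 to 63.9), against 28.6% of all genes. H3K9ac was at 43 (93.5%, interval 82.5 to 97.8), against 56.4%, and H3K9bhb at 14 (30.4%, interval 19.1 to 44.8), against 23.8%. Y78A was at 11 (23.9%), against 14.6%, and H3K9cr at 1 (2.17%), against 4.49%. Of the 23 with wild type ENL, 10 had Y78A (43.5%, interval 25.6 to 63.2), against 49.8% of all wild type ENL genes. The highest wild type folds were at GGPS1, which makes geranylgeranyl diphosphate, at 7.95, and NPC2, a lysosomal sterol carrier, at 7.67. PDSS2, a subunit of the enzyme that makes the ubiquinone side chain, stood at 6.80, MBTPS1, the site-1 protease that cuts SREBPs, at 6.27, and NUS1, a subunit of the dolichol-making enzyme, at 6.11. All 5 had H3K9ac and H3K9bhb, and NPC2 alone of these had Y78A. Of all wild type ENL genes, 98% had H3K9ac and 71.3% had H3K9bhb. The intervals of the 2 lists overlap for wild type ENL, H3K9ac and H3K9bhb, which does not show that the shares are alike.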

How the data were processed

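Peak lists of 5 CUT&Tag libraries were analysed, and titles gave the groups. Per the submitters' processing notes, the tools were Bowtie2, FastQC, MACS2 and deepTools (no versions) on hg38. The sources used here do not state the control, duplicate removal, filters or call threshold. The deposited fold is a ratio of summit signal to estimated background. The deposited p-values and q-values are on the −log10 scale, and that q also sets the deposited score. Other deposited columns are positions in bp.

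Peaks on 24 chromosomes were overlapped by at least 1 bp with windows of 1 kb around both gene ends (RefSeq, GRCh38.p14), or with the whole gene. Listed transcript starts came from the RefSeq promoter table, which holds 29 of the 32 genes. SQLE, FDFT1 and FASN are not in it. A whole number of summit fragments gave the deposited fold, with 1 added to signal and background, and −log10 p within a relative tolerance of 3e-05 for at least 99.98% of each list. The overlap and recovery code was tested on simulated data, with 0 overlaps missed and 100% of counts right. The strongest peak was the one with the highest fold. Alternatives were windows of 2.5 and 0.5 kb, listed starts, summits, 2 thresholds and equal lengths. All 32 genes are named, with the 5 related genes of highest wild type fold. Members, lists and rules were chosen with earlier results of these data known. Python 3.11.15, pandas 2.3.3 and scipy 1.17.1 were used.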

Additional observations from a re-analysis of the deposited data

How the results depend on the processing

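Of 63 recomputed counts, 55 stayed within 1.5 times the reported count. With peaks inside the gene counted, Y78A was at 12 genes in place of 7, all 12 with wild type ENL, and at 19.1% of all genes in place of 14.6%. At −log10 q of at least 5, H3K9cr was at 1 gene in place of 4, and at 1.51% of all genes in place of 4.49%. With each list limited to its 3852 strongest peaks by p, wild type ENL was at 10 genes (11.9% of all genes), H3K9ac at 10 (16.9%) and H3K9bhb at 8 (11.4%). Of those 10 wild type genes 3 had Y78A, against 70.3% of all wild type genes, and 6 had H3K9bhb, against 64.4%. MSMO1 and SQLE had Y78A peaks ranked just past the cut. That setting leaves fewer peaks in 4 of the lists by construction. Counting gene ends or any listed start, a setting chosen after seeing the data, put wild type ENL at 23 genes (30.3% of all genes) and Y78A at 9 (15.7%). No paired analysis was possible because each group had 1 library. Read totals are unknown, summit fragments of 10 to 30 carry wide counting intervals, and a missing peak shows only that no peak passed the authors' threshold.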
